A study of Homo sapiens with 6 samples.

Results

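The 9 genes described here encode the cyclins and kinases of the G1 phase and the phosphatase that activates them: the D-type cyclins CCND1, CCND2 and CCND3, the E-type cyclins CCNE1 and CCNE2, the kinases CDK4, CDK6 and CDK2, and CDC25A. They were taken by gene symbol from a table of 35106 genes, and all 9 were found. The set was chosen with earlier results of these data known. The RNA came from HCT116, an established human colon carcinoma line labelled wild type for genotype and grown in medium with serum. The 3 untreated libraries were compared with 3 libraries from cells held for 24 h with curcumin, the yellow polyphenol of turmeric, at a labelled dose of 30 whose unit reads as micrometres and is taken here as µM. The title of the series names inhibition of colon cancer cells as its subject, and no solvent control is named in the sources used here. Nothing says that the replicates were separate cultures, so the p-values reflect only how these libraries scatter, and that scatter may be technical.

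In G1, growth signals raise D-type cyclins, which bind CDK4 or CDK6 and begin the phosphorylation of the retinoblastoma protein. E2F factors are then released and drive genes of S phase, the E-type cyclins and CDC25A among them, and cyclin E with CDK2 completes the step. CDC25A removes the inhibitory phosphates that WEE1-type kinases place on the CDKs, while INK4 and CIP/KIP proteins bind the kinases or their cyclin complexes and hold them back. In colon epithelium, CCND1 is known as a gene that responds to growth factor and β-catenin signalling.

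Untreated libraries held 18154380 to 20311769 estimated counts and curcumin libraries 16663562 to 17893056. The 100 most abundant genes held 18.9% to 22.7% of the untreated counts and 39.9% to 43.3% of the treated counts, and the TMM factors, which scale the libraries to one another, lay at 1.30 to 1.34 and at 0.716 to 0.804. Levels are given as CPM, counts divided by the library size so scaled, and every rise or fall is relative to the other transcripts. Of the 8 colon epithelial markers examined, EPCAM, CDH1 and the keratins KRT8, KRT18 and KRT19 were present, and all 8 summed to 4082 ± 353 CPM before and 7989 ± 681 CPM after curcumin (SD, n = 3). Of the 6 that could be tested, 5 rose on the TMM scale, all but CDH1, beside 27.2% of all genes. KRT8 moved from 1944 ± 199 to 4657 ± 295 CPM. VIL1 did not exceed 0.873 CPM, CDH17 2.03 CPM or LGALS4 2.74 CPM. The summed level of 4 fibroblast markers was 29.2 ± 2.79 and 23.4 ± 13.0 CPM before and after curcumin, nearly all from COL1A1, and that of 4 leukocyte markers 2.78 ± 0.569 and 22.2 ± 8.34 CPM, nearly all from CD68. For 3 endothelial markers it was 1.78 ± 0.423 and 17.6 ± 9.94 CPM, the treated level mostly from PECAM1. CD3E was at 0 in all libraries, PTPRC did not exceed 0.556 CPM and CDH5 did not exceed 0.118 CPM. The part of these markers in the members' values was not tested.

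On the TMM scale, relative to the other transcripts, CCND1, CCNE2 and CDK6 RNA was lower after curcumin and CCND3, CDK2 and CDK4 RNA was higher. These 3 rises depended on the scaling. With library size alone the log2 fold changes were -0.07 for CCND3, -0.13 for CDK2 and 0.24 for CDK4, and none was called. The call of CCNE2 was lost in 6 of 15 alternative settings. CDK6 had the largest fall among the 8 members tested, 3.11-fold, and CDK4 the largest rise, 2.05-fold. CCNE1 and CDC25A did not pass the test, and CCND2 had too few counts to be tested. Thus 6 of 8 members were called by edgeR's quasi-likelihood test at a Benjamini-Hochberg adjusted p under 0.05, against 56.1% of the 13718 genes tested. The 3 called higher stand beside 27.2% of all genes and the 3 called lower beside 28.9% of them, and the members' count is read against a comparison in which most genes were called. In the same 6 genes the groups did not overlap, 3 higher and 3 lower, while 64.0% of all genes tested had groups without overlap, 30.9% higher and 33.1% lower. The median log2 fold change was 0.11 over the 8 members and -0.04 over all genes tested. In bulk RNA, fewer cells of a type and less RNA per cell cannot be told apart.

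**Figure D1:**
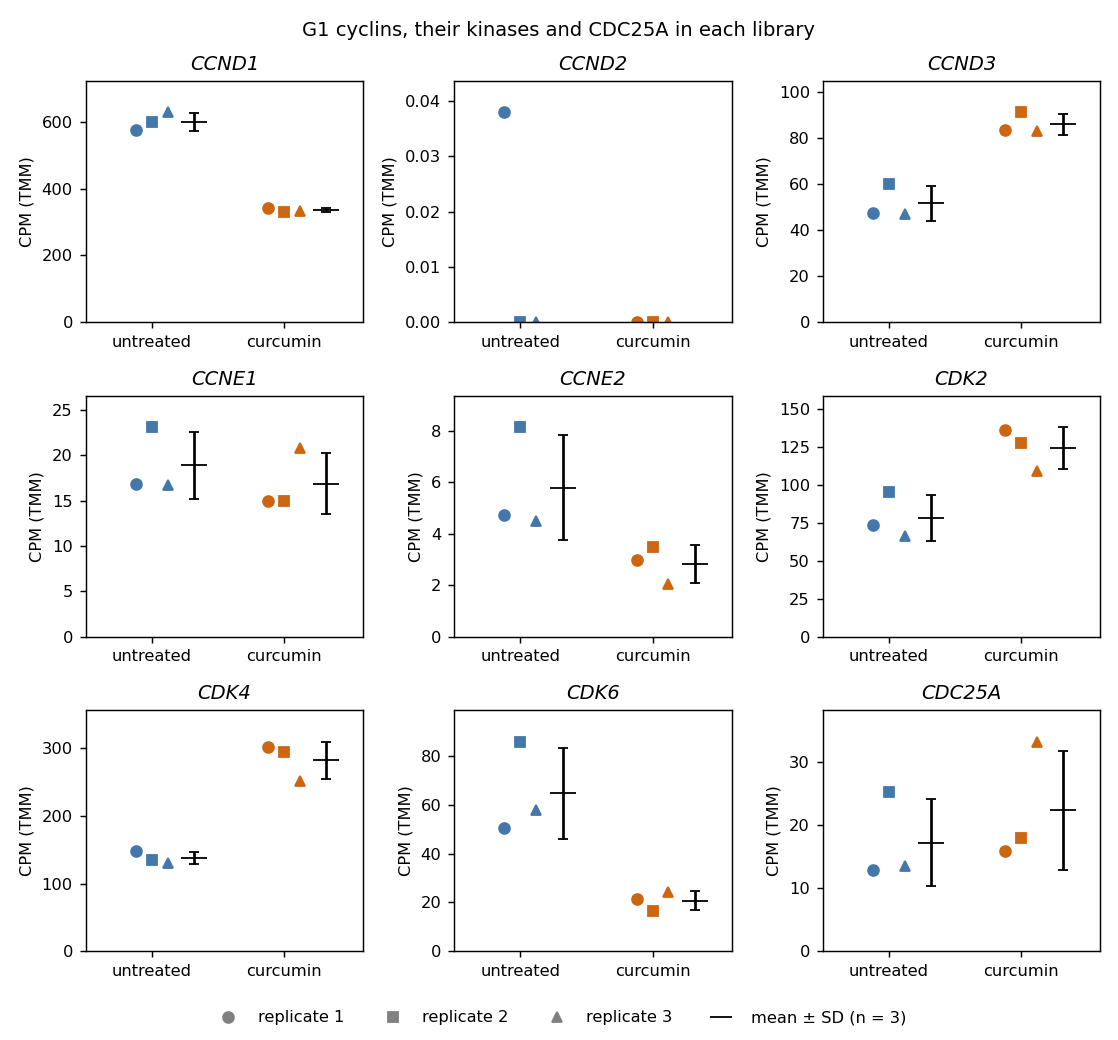
Each panel plots one gene, with TMM-scaled CPM on a vertical axis from 0 and the untreated and curcumin libraries side by side; points are libraries and the bars show mean ± SD (n = 3, none drawn for CCND2). All 3 treated libraries lie below all untreated libraries for CCND1, CCNE2 and CDK6 and above them for CCND3, CDK2 and CDK4, while the groups overlap for CCNE1 and CDC25A.

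Among the D-type cyclins, CCND1 fell and CCND3 rose. CCND1 (ENSG00000110092, chr11:69641087-69654474, plus strand, 5 exons in its longest coding transcript, GENCODE 29 on GRCh38) encodes cyclin D1. Its level was 575, 601 and 629 CPM in untreated libraries 1, 2 and 3, and 342, 331 and 334 CPM in the treated libraries. All 3 treated libraries lay below all untreated libraries and close to each other. CCND1 fell from 602 ± 27.0 to 336 ± 5.67 CPM (SD, n = 3), a log2 fold change of -0.84 ± 0.13 (SE, edgeR, Benjamini-Hochberg adjusted p = 0.000354). In untreated cells 108 genes had a higher mean CPM than CCND1, and after curcumin 502 did. The fall was called under each of 15 alternative settings, between -1.65 and -0.56 on the log2 scale. LTO1 overlaps 1399 bases of CCND1 on the opposite strand and had 123 to 285 estimated counts per library.

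CCND3 (ENSG00000112576, chr6:41934933-42050357, minus strand, 5 exons) encodes cyclin D3, which forms active complexes with the same kinases. It stood at 47.2, 60.2 and 47.1 CPM in untreated libraries and at 83.4, 91.0 and 83.2 CPM after curcumin. Every treated library was above every untreated library, and replicate 2 was the highest in both groups. CCND3 rose from 51.5 ± 7.50 to 85.9 ± 4.46 CPM (SD, n = 3), a log2 fold change of 0.74 ± 0.15 (SE, edgeR, Benjamini-Hochberg adjusted p = 0.00224). This rise rests on the scaling between libraries. With library size alone the log2 fold change was -0.07 (adjusted p = 0.735), and with the 100 most abundant genes left out of the library size it was 0.38 (adjusted p = 0.0556).

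CCND2 (ENSG00000118971, chr12:4273772-4305350, plus strand, 5 exons), the gene of cyclin D2, had 1 count in untreated library 1 and 0 counts in the other 5 libraries. The limit set by 3 counts was 0.114 to 0.123 CPM before and 0.224 to 0.238 CPM after curcumin, which covers counting error only, so no fold is given. A second annotated gene on the same strand, AC008012.1, overlaps all 31579 bases of CCND2. It had 136 estimated counts in untreated library 1, 99.4 in treated library 2 and 0 in the others, and how reads were shared between both genes is not known.

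The balance within a library does not depend on the scaling between libraries. The log2 ratio of CCND1 to CCND3 counts was 3.61, 3.32 and 3.74 in untreated cells and 2.03, 1.86 and 2.005 after curcumin. All treated ratios lay below all untreated ratios. The mean moved from 3.55 ± 0.21 to 1.97 ± 0.09 (SD, n = 3), a 3.01-fold shift of the ratio (exact two-sided permutation p = 0.1, the lowest a design of 3 against 3 can give, and 0.1 after adjustment over the 4 ratios examined). After removal of the length trend the shift was 2.12-fold. Per kilobase of the longest coding transcript, CCND1 made up 86.7% ± 1.74 of D-type cyclin RNA in untreated cells and 68.5% ± 1.39 after curcumin (SD, n = 3), and CCND3 made up nearly all of the rest.

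Of the E-type cyclins, which activate CDK2, CCNE2 was called lower and CCNE1 was not called. CCNE1 (ENSG00000105173, chr19:29811898-29824308, plus strand, 12 exons) stood at 16.8, 23.1 and 16.8 CPM in untreated and 14.9, 14.9 and 20.8 CPM in treated libraries. The groups overlapped through treated library 3. The means were 18.9 ± 3.66 and 16.9 ± 3.38 CPM (SD, n = 3), and the log2 fold change of -0.16 had a 95% confidence interval from -0.64 to 0.32 (edgeR, Benjamini-Hochberg adjusted p = 0.55). With library size alone CCNE1 was called lower, at -0.98 (adjusted p = 0.00206).

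CCNE2 (ENSG00000175305, chr8:94879770-94896678, minus strand, 12 exons) was the least abundant member that could be tested, with 125, 198 and 114 counts in untreated and 40, 44 and 26 counts in treated libraries. These correspond to 4.74, 8.14 and 4.49 CPM before and 2.99, 3.49 and 2.03 CPM after curcumin. The groups did not overlap, but untreated library 2 lay well above the other untreated libraries. CCNE2 fell from 5.79 ± 2.04 to 2.84 ± 0.741 CPM (SD, n = 3), a log2 fold change of -1.03 ± 0.37 (SE, edgeR, Benjamini-Hochberg adjusted p = 0.0370). This call was lost in 6 of 15 alternatives. The log2 fold change was -0.71 (adjusted p = 0.159) without untreated library 2 and -0.83 (0.0727) without treated library 3. In the others it stayed close to the main value, at -1.17 (0.0540) without untreated library 1, -1.07 (0.0554) without treated library 1, -0.99 (0.0510) with limma-voom and -0.93 (0.0595) after removal of the transcript length trend. INTS8 overlaps 1977 bases of CCNE2 on the opposite strand and had 704 to 1892 estimated counts per library. Overlaps given here are of whole gene spans, introns included, and overlap of exons was not measured. The use of strand in counting is not stated, so how reads from any shared bases were assigned is not known.

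The log2 ratio of CCNE1 to CCNE2 counts was 1.82, 1.503 and 1.90 in untreated and 2.31, 2.08 and 3.33 in treated libraries. The groups did not overlap, and treated library 3 stood highest. The difference of the means was 0.83 (exact two-sided permutation p = 0.1, the smallest possible, 0.1 adjusted over 4 ratios) and 0.45 without treated library 3. After removal of the length trend it was 0.43.

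The kinases that D-type cyclins activate went in opposite directions. CDK4 (ENSG00000135446, chr12:57747727-57756013, minus strand, 8 exons) stood at 148, 134 and 130.2 CPM in untreated libraries and at 302, 294 and 251 CPM after curcumin. Every treated library was above every untreated library. CDK4 rose from 138 ± 9.26 to 282 ± 27.4 CPM (SD, n = 3), a log2 fold change of 1.04 ± 0.14 (SE, edgeR, Benjamini-Hochberg adjusted p = 0.000176). Its estimated counts before scaling ranged from 3268 to 3901 without and from 3206 to 4034 with curcumin, and with library size alone the log2 fold change was 0.24 (adjusted p = 0.202), the only one of 15 alternatives in which the call was lost. TSPAN31 overlaps 2485 bases of CDK4 on the opposite strand, with 271 to 504 estimated counts per library before and 465 to 640 after curcumin. MARCH9 overlaps 916 bases, with 684 to 966 before and 135 to 149 after.

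CDK6 (ENSG00000105810, chr7:92604921-92836594, minus strand, 8 exons), the close relative of CDK4, stood at 50.3, 85.8 and 57.8 CPM in untreated libraries and at 21.2, 16.7 and 24.4 CPM after curcumin. The groups did not overlap, and untreated library 2 was the highest of all. CDK6 fell from 64.6 ± 18.7 to 20.8 ± 3.88 CPM (SD, n = 3), a log2 fold change of -1.64 ± 0.23 (SE, edgeR, Benjamini-Hochberg adjusted p = 0.000249). It was called lower in all 15 alternatives, from -2.45 with library size alone to -0.71 after removal of the length trend (adjusted p = 0.0220).

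Both kinases together are best described by their ratio within each library. The log2 ratio of CDK4 to CDK6 counts was 1.56, 0.65 and 1.17 in untreated cells and 3.83, 4.14 and 3.36 after curcumin. The groups did not overlap. The ratio shifted 6.27-fold towards CDK4, from 1.12 ± 0.46 to 3.77 ± 0.39 on the log2 scale (SD, n = 3, exact two-sided permutation p = 0.1, the smallest possible, 0.1 adjusted over 4 ratios), and 2.67-fold with the length trend removed. Per kilobase, CDK6 made up 7.78% ± 2.29 of the RNA of both kinases in untreated cells and 1.32% ± 0.359 after curcumin (SD, n = 3).

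**Figure D2:**
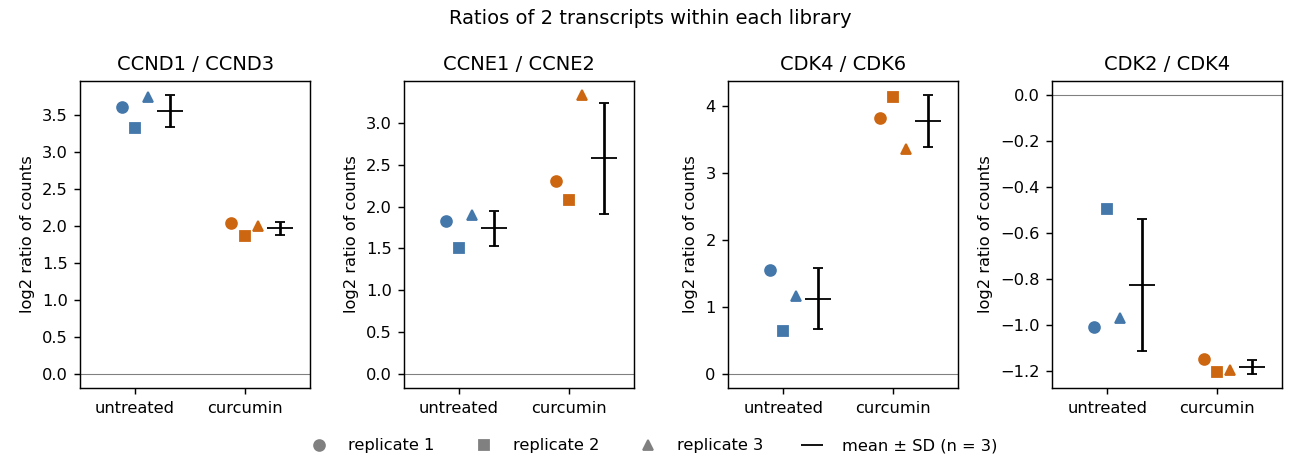
Each panel plots the log2 ratio of estimated counts of a pair of genes within each library, untreated and curcumin side by side; points are libraries and bars show mean ± SD (n = 3). The CCND1 to CCND3 ratio lies lower and the CDK4 to CDK6 ratio higher in all 3 treated libraries, and treated replicate 3 stands highest for CCNE1 to CCNE2.

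CDK2 (ENSG00000123374, chr12:55966769-55972784, plus strand, 7 exons), the partner of the E-type cyclins, stood at 73.4, 95.2 and 66.4 CPM in untreated libraries and at 136, 127 and 109 CPM after curcumin. The groups did not overlap. CDK2 rose from 78.3 ± 15.05 to 124 ± 13.7 CPM (SD, n = 3), a log2 fold change of 0.67 ± 0.17 (SE, edgeR, Benjamini-Hochberg adjusted p = 0.00732). The call was lost with library size alone (-0.13, adjusted p = 0.547), with the 100 most abundant genes left out of it (0.31, adjusted p = 0.149) and after removal of the length trend (0.42, adjusted p = 0.0549). PMEL, on the opposite strand, spans all 6016 bases of CDK2 and had 70 to 133 estimated counts per library in untreated and 148 to 223 in treated cells, against 1397 to 2315 for CDK2.

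The log2 ratio of CDK2 to CDK4 counts was -1.01, -0.50 and -0.97 in untreated and -1.15, -1.20 and -1.20 in treated libraries. The treated ratios were lower in all 3 libraries and lay close together. The difference of the means was -0.36 (exact two-sided permutation p = 0.1, the smallest possible, 0.1 adjusted over 4 ratios), and untreated library 2 stood apart from the other untreated libraries.

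CDC25A (ENSG00000164045, chr3:48157146-48188402, minus strand, 15 exons), the phosphatase, was not called. It stood at 12.9, 25.3 and 13.6 CPM in untreated libraries and at 16.0, 18.0 and 33.3 CPM after curcumin. The spread within each group was wide, with untreated library 2 and treated library 3 high. The means were 17.3 ± 6.96 and 22.4 ± 9.46 CPM (SD, n = 3), and the log2 fold change of 0.38 had a 95% confidence interval from -0.36 to 1.12 (edgeR, Benjamini-Hochberg adjusted p = 0.358). Without treated library 3 it was -0.019. It was not called in any of the 15 alternatives.

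The start regions of CDC25A, CDK4 and CDK6 are shown because these members include the kinases that moved oppositely and a gene known to be driven by E2F. RefSeq windows from 250 bases before to 50 after an annotated start (GRCh38.p14) were matched for 5 of the 9 members, in 8 windows. They were searched on both strands for E2F-type motifs (TTTCCCGC, TTTGGCGC, TTTCGCGC or TTTGCCGC), which 3.31% of 35116 such windows hold, and for CACGTG, the E-box bound by MYC, which 7.26% hold. CDC25A was the only one of the 5 with an E2F-type match, 44 bases before its start. CDK4 had 3 matches to CACGTG, at 216, 196 and 101 bases before its start and no E2F-type match, and 3 or more CACGTG were found in 0.0940% of the windows. Of the 250 bases before this CDK4 start, 211 lie in annotated GENCODE exons of CDK4. The CDK4 stretches shown are therefore not free of exons, while those of CDC25A and CDK6 are. The first CDK6 window held CACGTG only at 30 bases after the start, outside the stretch shown. The windows of CCNE1 and CCND3 held neither. Capitals mark the matches, sequences run 5′ to 3′ on the gene's strand, and a match is a description of the letters only.
CDC25A, chr3:48188418-48188667, minus strand: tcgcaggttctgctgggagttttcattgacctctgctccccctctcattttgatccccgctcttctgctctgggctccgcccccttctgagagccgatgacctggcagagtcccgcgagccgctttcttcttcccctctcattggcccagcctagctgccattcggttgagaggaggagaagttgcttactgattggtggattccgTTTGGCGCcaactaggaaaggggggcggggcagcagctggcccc
CDK4, first pair of matches, chr12:57752499-57752528, minus strand: gtCACGTGtgatagcaacagatCACGTGgc
CDK4, last match, chr12:57752394-57752423, minus strand: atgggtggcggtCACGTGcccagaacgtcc
CDK6, chr7:92836595-92836823, minus strand: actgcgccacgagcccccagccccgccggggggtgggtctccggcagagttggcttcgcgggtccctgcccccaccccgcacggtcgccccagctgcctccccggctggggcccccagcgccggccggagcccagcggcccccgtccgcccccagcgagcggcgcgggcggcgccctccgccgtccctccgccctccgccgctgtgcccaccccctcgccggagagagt

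The order of the members by level is given per kilobase of the longest coding transcript. In untreated cells CCND1 led at 139.7 ± 6.26 CPM per kilobase, followed by CDK4 at 66.2 ± 4.46, CDK2 at 34.1 ± 6.55, CCND3 at 21.5 ± 3.13, CCNE1 at 9.25 ± 1.79, CDK6 at 5.57 ± 1.61, CDC25A at 4.56 ± 1.84 and CCNE2 at 1.74 ± 0.613 (SD, n = 3), with CCND2 at the bottom. Only CDK6 and CDC25A were neighbours whose libraries overlapped. After curcumin CDK4 led at 136 ± 13.2 CPM per kilobase, ahead of CCND1 at 77.9 ± 1.32, CDK2 at 54.1 ± 5.98, CCND3 at 35.9 ± 1.86, CCNE1 at 8.27 ± 1.66, CDC25A at 5.93 ± 2.50, CDK6 at 1.79 ± 0.334 and CCNE2 at 0.852 ± 0.223. CCNE1 and CDC25A then overlapped. As a description chosen after the values were seen, D-type cyclin RNA per kilobase was 2.25 ± 0.212 times that of CDK4 and CDK6 together in untreated cells and 0.831 ± 0.0728 times after curcumin (SD, n = 3). Fold changes varied with transcript length over all genes, as described below, and division by length does not remove that trend. Neither the order nor this quotient was computed with the trend removed.

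The calls of several members moved with the scaling between libraries. With library size alone, 0 members were called higher by edgeR, beside 9.62% of all genes, and CCND1, CCNE1, CCNE2 and CDK6 were called lower, beside 56.5% of all genes. The median log2 fold change of all genes tested then moved by -0.80 from its TMM value, and with the 100 most abundant genes left out it moved by -0.36. Relative to that median, CCND3, CDK2 and CDK4 lay above and CCND1, CCNE2 and CDK6 below under each of these scalings. CCND1, CCNE2 and CDK6 were called lower under all 3 scalings. With the 100 most abundant genes left out, CDK4 was the 1 member called higher, beside 18.4% of all genes, and those 3 the ones called lower, beside 40.7%.

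**Figure D3:**
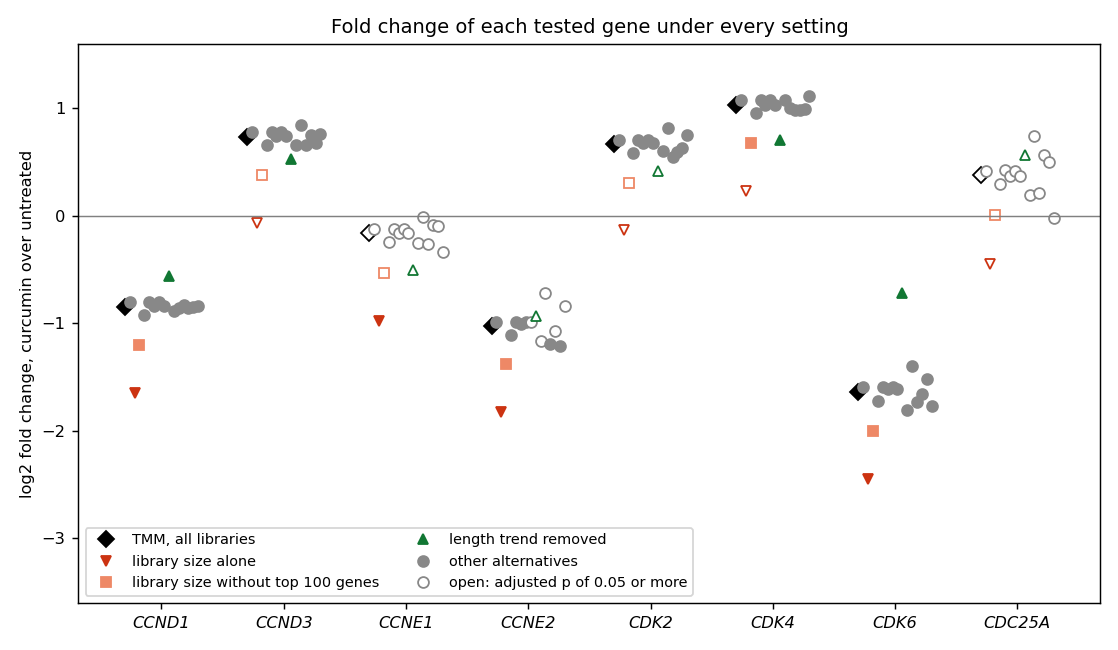
The vertical axis gives the log2 fold change, curcumin over untreated, of each tested member; the diamond is the fit with TMM over all libraries, coloured symbols are changes of scaling or length, grey circles are the other alternatives, and open symbols have an adjusted p of 0.05 or more. CCND1 and CDK6 keep filled symbols below 0 throughout, while CCND3 and CDK2 cross to -0.07 and -0.13 with library size alone.

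Fold changes also varied with transcript length over all genes. When 10630 protein-coding genes were ranked by length and cut into 5 equal groups, the median log2 fold change stepped down from 0.78 in the shortest (207 to 2019 bases) through 0.22, -0.11 and -0.40 to -0.78 in the longest (5899 to 34526 bases). CDK6, with 11612 bases, lies in the longest group, and CDK4, with 2076 bases, in the second shortest, together with CCND3, CDK2 and CCNE1. With each library's length trend removed, the log2 fold changes were 0.70 for CDK4 and -0.71 for CDK6 (edgeR, Benjamini-Hochberg adjusted p = 0.00140 and 0.0220), -0.56 for CCND1 (adjusted p = 0.00425) and 0.53 for CCND3 (adjusted p = 0.0144). CDK2 and CCNE2 were then not called, at 0.42 (adjusted p = 0.0549) and -0.93 (adjusted p = 0.0595), the latter close to its value of -1.03 without the removal. Under this setting 26.1% of all genes were called higher and 21.9% lower, and 2 members each way. The part of length in these results was otherwise not tested.

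**Figure D4:**
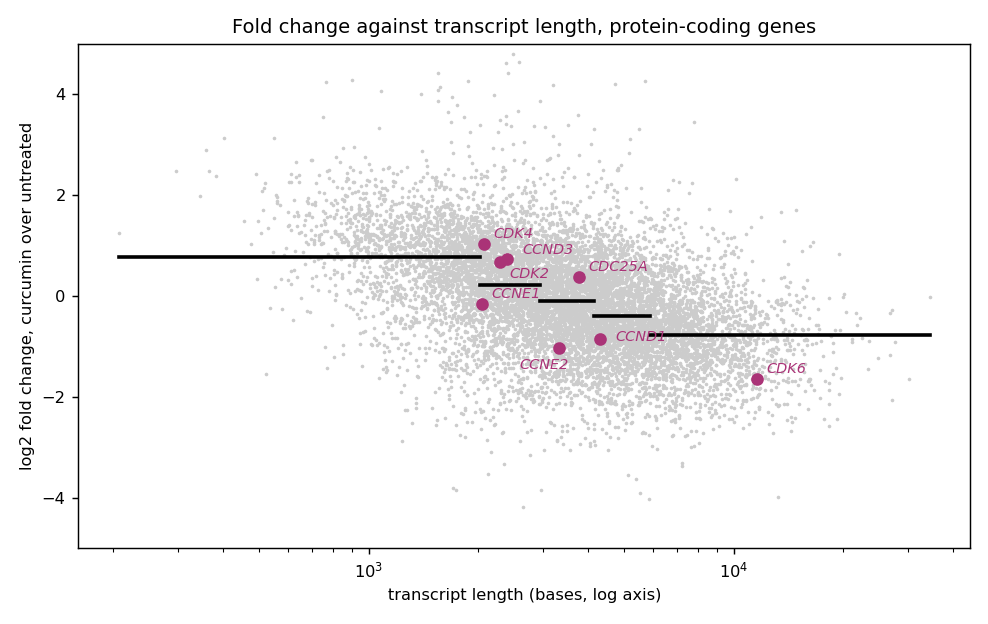
The horizontal log axis gives transcript length in bases and the vertical axis the log2 fold change, curcumin over untreated; grey points are protein-coding genes with at least 5 CPM on average, the 8 tested members are named, and black lines mark the median of each of 5 length groups. The medians step down from 0.78 to -0.78 with length, and 10 of 10630 genes lie beyond the axis.

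Markers of cycling cells differed between replicates of a group. The summed level of 9 such genes (MKI67, TOP2A, PCNA and MCM2 to MCM7) was 1187, 2186 and 1006 CPM in untreated and 1546, 1493 and 1191 CPM in treated libraries. Within the untreated group, all 9 markers and 6 of the 8 tested members, namely all but CCND1 and CDK4, were highest in library 2. Of the 9, 3 were called lower and 1 higher, beside 28.9% and 27.2% of all genes. The examples that follow were chosen after their values were seen. PCNA, the sliding clamp of DNA polymerase, was at 139.7, 224 and 97.1 CPM in untreated and 50.8, 46.8 and 56.7 CPM in treated libraries, and fell. MCM7, a subunit of the replicative helicase, rose from 225 ± 95.1 to 481 ± 23.3 CPM (SD, n = 3). The part of cycling in the members' values was not tested.

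The CDK inhibitors include the proteins that hold cyclin D and cyclin E kinases back. Of 7 tested, 2 rose, 1 fell and 4 were not called, where 27.2% of all genes were called higher and 28.9% lower. The median log2 fold change was 0.51 against -0.04 for all genes. CDKN2A, whose INK4 product binds CDK4 and CDK6, rose from 56.9 ± 9.91 to 221 ± 6.99 CPM (SD, n = 3, edgeR, Benjamini-Hochberg adjusted p = 1.51e-05). The counts are per gene, so which CDKN2A transcript rose, and whether it encodes the INK4 product, is not known. Whether HCT116 cells make a working INK4 product from CDKN2A was not tested. CDKN1A, which encodes p21, stood at 180.2, 147 and 199.8 CPM before and 338, 362 and 531 CPM after curcumin, a rise of 1.22 ± 0.20 on the log2 scale (SE, edgeR, Benjamini-Hochberg adjusted p = 0.000565). With library size alone CDKN1A was at 0.41 (adjusted p = 0.0662). CDKN1C, which encodes p57, fell from 28.9 ± 7.26 to 14.7 ± 1.41 CPM (SD, n = 3). The list held 1 higher and 3 lower with library size alone, where 9.62% of all genes were higher and 56.5% lower, and 2 and 1 after removal of the length trend, where the shares were 26.1% and 21.9%.

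The RB and E2F family carries the signal from the kinases to the genes of S phase. Of 13 genes tested, 1 rose, 6 fell and 6 were not called, where 27.2% of all genes were called higher and 28.9% lower. The list's median log2 fold change was -0.86. E2F1, an activator, rose from 40.6 ± 9.26 to 82.3 ± 4.88 CPM, and E2F3, another activator, fell from 48.6 ± 2.94 to 11.5 ± 4.72 CPM (SD, n = 3). E2F2 fell from 28.0 ± 6.80 to 9.72 ± 1.13 CPM (SD, n = 3). RB1, the retinoblastoma gene itself, was at 47.7 ± 6.52 and 57.0 ± 7.66 CPM and was not called (edgeR, Benjamini-Hochberg adjusted p = 0.211). E2F1 was not called with library size alone (0.21 on the log2 scale, adjusted p = 0.343), under which 0 of the 13 genes were called higher and 12 lower, beside 9.62% and 56.5% of all genes. After removal of the length trend 2 were called higher and 4 lower, beside 26.1% and 21.9% of all genes.

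Of 12 genes for CDK activation and tyrosine control, 3 rose, 1 fell and 8 were not called. Of all genes, 27.2% were called higher and 28.9% lower. The list's median log2 fold change was 0.35. CDC37, the co-chaperone that loads CDK4 onto HSP90, rose from 172 ± 16.9 to 436 ± 21.9 CPM, and CKS1B, a CDK-binding subunit, rose from 66.5 ± 12.9 to 197 ± 10.5 CPM (SD, n = 3). WEE1, which places the phosphates that CDC25A removes, fell from 62.3 ± 14.7 to 26.5 ± 7.99 CPM (SD, n = 3). All 3 of these genes were called in the 15 alternatives, but the log2 fold change of CDC37 went from 1.34 to 0.53 with library size alone and that of CKS1B from 1.56 to 0.51 after removal of the length trend. The list's counts were 2 higher and 4 lower with library size alone, beside 9.62% and 56.5% of all genes.

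Of 14 genes for the turnover of the G1 cyclins and CDC25A, 1 rose, 8 fell and 5 were not called. Of all genes, 27.2% were called higher and 28.9% lower. The median of the list's log2 fold changes was -0.79. BTRC, the F-box protein that directs CDC25A to degradation, fell from 45.3 ± 2.92 to 21.0 ± 2.84 CPM (SD, n = 3). GSK3B, the kinase that marks cyclin D1 for export and degradation, fell from 87.3 ± 3.27 to 44.0 ± 6.98 CPM (SD, n = 3), and after removal of the length trend it was at -0.26 (adjusted p = 0.132). FBXO4, an F-box protein reported to act on cyclin D1, rose from 3.49 ± 0.307 to 6.21 ± 1.63 CPM, a call (edgeR, Benjamini-Hochberg adjusted p = 0.0413) lost in 9 of 15 alternatives, in which the adjusted p reached 0.952. Of the 14 genes, 0 were higher and 12 lower with library size alone (9.62% and 56.5% of all genes), and 2 higher and 4 lower after removal of the length trend (26.1% and 21.9% of all genes).

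Of 12 transcription factors known to act on CCND1, 11 could be tested: 2 rose, 3 fell and 6 were not called. Of all genes, 27.2% were called higher and 28.9% lower. The list's median log2 fold change was -0.29. TCF7L2, the partner of β-catenin, fell from 234 ± 31.8 to 40.3 ± 1.70 CPM and SP1, a factor that binds GC boxes, fell from 117 ± 6.13 to 36.2 ± 2.93 CPM (SD, n = 3). FOSL1, a component of AP-1, rose from 57.5 ± 3.64 to 189 ± 80.5 CPM (SD, n = 3). EGR1, an immediate-early factor, rose from 565 ± 207 to 1107 ± 129 CPM (SD, n = 3), a call lost under library size alone (0.16, adjusted p = 0.56) and with the 100 most abundant genes left out (0.60, adjusted p = 0.0572). LEF1 had too few counts to be tested. Under library size alone 1 factor was called higher and 6 lower, beside 9.62% and 56.5% of all genes, and after removal of the length trend 5 higher and 3 lower, beside 26.1% and 21.9%.

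Of the later cyclins and CDK1, 2 of 5 fell and 3 were not called, where 28.9% of all genes were called lower. The list's median log2 fold change was -0.69. CCNF fell from 71.0 ± 33.4 to 21.5 ± 4.19 CPM (SD, n = 3). CDK1, the mitotic kinase, was at 64.2, 90.2 and 38.8 CPM in untreated and 41.6, 38.5 and 22.4 CPM in treated libraries, and its groups overlapped. Its fall of 0.91 on the log2 scale (edgeR, Benjamini-Hochberg adjusted p = 0.0291) was lost without untreated library 1 (-0.93, adjusted p = 0.0673), untreated library 2 (-0.60, 0.123) or treated library 3 (-0.68, 0.0704). The cyclins CCNA2, CCNB1 and CCNB2 were not called, although all 5 genes were called lower with library size alone, as were 56.5% of all genes.

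**Figure D5:**
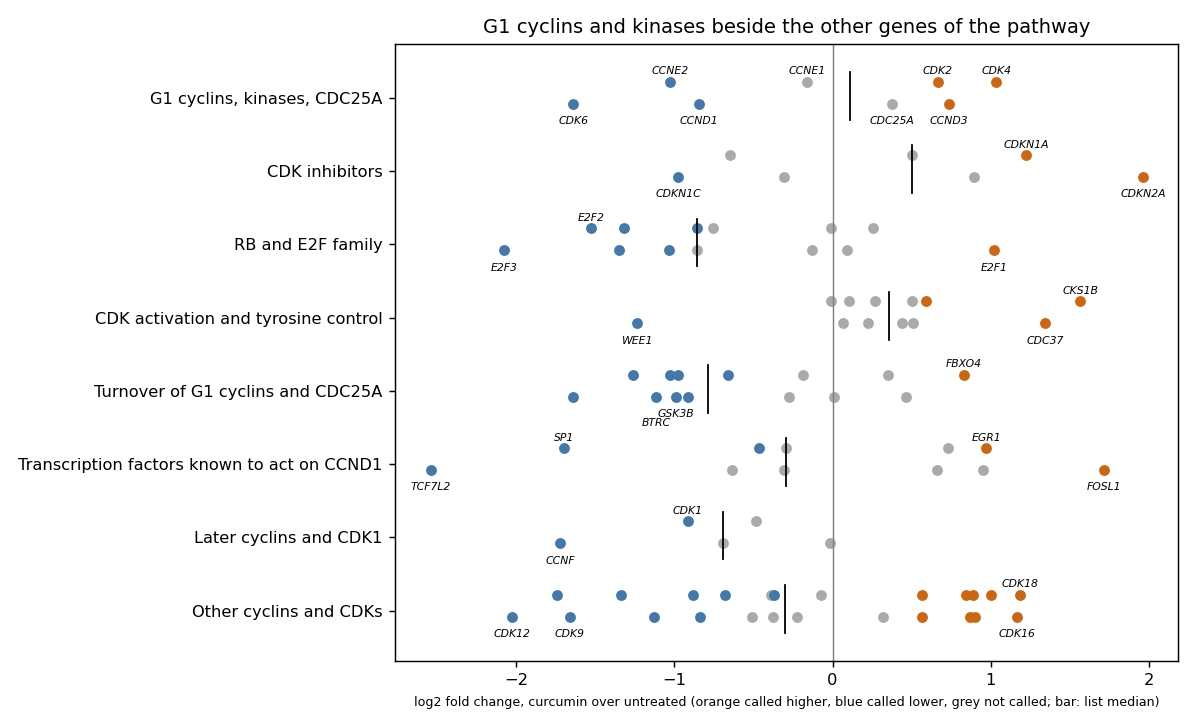
Each row is a gene list and each point a gene at its log2 fold change, curcumin over untreated, on the horizontal axis; orange points were called higher, blue points lower and grey points not called, and the bar is the list's median. The members lie on both sides of 0, with a median of 0.11.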

How the data were processed

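Per the labels' protocols, total RNA entered a SMARTer mRNA-Seq library kit. The values are estimated counts per gene, as deposited by the authors, many not whole and without scaling between libraries. For the aligner, counting tool and strand setting, each is not given in the sources used here. GRCm38 and mm10, both mouse, are named in the submitters' processing notes, but all 35106 rows carry human Ensembl identifiers, and the table was read as human. Positions and transcript lengths came from GENCODE 29, and promoter windows from RefSeq on GRCh38.p14.

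Estimated counts were rounded, filtered with filterByExpr (minimum count 10, total 15), scaled by TMM and tested over all genes with edgeR 4.0.16's quasi-likelihood test (R 4.3.3), with calls where the Benjamini-Hochberg adjusted p was under 0.05. Errors of log2 fold changes are standard errors. Ratios were taken within each library after adding 0.5 to each count and compared by an exact two-sided permutation test. Alternatives were RLE factors, library size alone, library size less the 100 most abundant genes, no filter, a minimum mean of 50 counts, the replicate block, DESeq2 1.42.0, limma-voom (limma 3.58.1), removal of each library's transcript length trend (loess span 0.3), each library left out, and a pseudocount of 5 for the ratios. Removal of the length trend from the ratios was added after seeing the data. Replicate pairs gave a chi-square per degree of freedom of 11.1 to 71.2, so none were the same library within sampling noise.

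The members and gene lists were chosen with earlier results of these data known. Beside the 9 members, the text names up to 2 genes called higher and 2 called lower per list, by smallest adjusted p, and for CCND1, CCNE1, CDK4 and CDC25A the 3 protein-coding genes with the smallest root mean square difference of centred log2 CPM; other genes were chosen after their values were seen. This rule also picked 1 gene that is not reported here. On simulated data for this comparison (13560 genes), the test called 40 of 100 genes changed by a fold of 2, 82 of 97 changed by a fold of 4 and 9 of 13363 unchanged genes. The simulation changed few genes and held no length trend. Its rates therefore need not hold for the real libraries, where 56.1% of genes were called.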

Additional observations from a re-analysis of the deposited data

How the results depend on the processing

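With library size alone, 1320 genes were called higher and 7744 lower, against 3732 and 3964 with TMM, so that 14.6% of the calls were higher, and 0 members were called higher. CCND3 was then at -0.069 on the log2 scale, CDK2 at -0.13, CDC25A at -0.45, GCLM at -0.25, SNX22 at -0.29 and WBP11 at -0.37, each against a positive value with TMM. With the 100 most abundant genes left out of it, 2523 genes were called higher and 5586 lower (31.1% higher), and 1 member, CDK4, was called higher. With the length trend removed, NPLOC4 was at 0.33 and LARP4 at 0.41. Without a filter the median log2 fold change of all genes moved by 0.12. The cause was not tested. Leaving out each library in turn gave -0.019 to 0.74 for CDC25A, with the lowest value without treated library 3, and -0.34 to 0.027 for RAB8A, with the highest value without untreated library 2. The 4 ratios kept their direction, from -1.71 to -1.496 for CCND1 to CCND3, 0.45 to 1.08 for CCNE1 to CCNE2, 2.41 to 2.86 for CDK4 to CDK6 and -0.45 to -0.19 for CDK2 to CDK4, the last being smallest without untreated library 2. Whether the replicate numbers mark pairs or only name the libraries is not known. Deviations of same-numbered libraries correlated at 0.040, 0.023 and 0.11, and 5 of 6 libraries correlated best with their own number. Some margins were small. Treated library 1 correlated at 0.0396 with untreated library 1 and at 0.0394 with untreated library 2. Treated library 2 correlated at 0.0229 with untreated library 2 and at 0.0185 with untreated library 1. Since deviations are from group means, these comparisons are not independent and do not settle the pairing. With the replicate block, 3683 genes were called higher and 4011 lower, 3 members each way, and the 4 ratios kept their values (-1.59, 0.83, 2.65 and -0.36), with p = 0.25 in the exact paired permutation test, the smallest that 3 pairs allow. At this depth CCND2 could not be compared, and CCNE2 rests on 26 to 198 counts per library.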

Other observations

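Among 24 other cyclins and CDKs, 9 were called higher and 9 lower, beside 27.2% and 28.9% of all genes. The median log2 fold change was -0.30 against -0.04 for all genes. The counts were 1 higher and 15 lower with library size alone, beside 9.62% and 56.5% of all genes. CDK12, a kinase of the elongating RNA polymerase, was at 58.1, 72.9 and 76.9 CPM in untreated and 15.1, 16.9 and 19.1 CPM in treated libraries, and CDK9, the kinase of P-TEFb, fell from 68.6 ± 3.31 to 21.7 ± 0.631 CPM (SD, n = 3). CDK12 fell by 2.02 and CDK9 by 1.66 on the log2 scale, and both were called in all 15 alternatives. CDK16, a kinase of the PCTAIRE group, rose from 105 ± 4.81 to 236 ± 7.15 CPM, and CDK18, of the same group, rose from 34.9 ± 7.67 to 79.5 ± 9.50 CPM (SD, n = 3), the latter a call lost with library size alone (0.39, edgeR, Benjamini-Hochberg adjusted p = 0.115).

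Among protein-coding genes, those whose pattern over the 6 libraries was most like that of CCND1 were RHOBTB3, LNX2 and B4GALT1, with a root mean square difference of centred log2 CPM of 0.038, 0.043 and 0.046. For CDK4, MYL9 lay at 0.046 and FIBP at 0.047. The nearest genes to CCNE1 were RAB8A, NPLOC4 and LARP4, at 0.030, 0.061 and 0.062. CDC25A had no neighbour as close, with GCLM, SNX22 and WBP11 at 0.13, 0.15 and 0.16.

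Some markers of other cell types reached the levels of the less abundant members. The fibroblast gene COL1A1 was at 30.1, 25.6 and 30.3 CPM in untreated and 16.3, 14.9 and 37.5 CPM in treated libraries, and was not called. The endothelial and leukocyte gene PECAM1 was at 0, 0.123 and 0.157 CPM in untreated and 6.65, 13.0 and 25.0 CPM in treated libraries, and the macrophage gene CD68 at 3.41, 2.30 and 2.56 before and 14.7, 19.8 and 30.6 CPM after curcumin. Treated library 3 was the highest treated library for these 3 genes, while VWF and PTPRC were highest in treated library 2. Among the members, treated library 3 was the highest treated library for CCNE1, CDK6 and CDC25A and the lowest for CCND3, CCNE2, CDK2 and CDK4.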
